A study of Rattus norvegicus with 32 samples.

Results

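The extracellular matrix of the rat mammary gland was followed over the 4-day estrous cycle through 34 genes for collagens, basement membrane proteins and other matrix proteins. In background terms, fibrillar collagens assemble into the fibres of the stroma, while type IV collagens, laminins, nidogens and perlecan form the basement membrane, the thin sheet that separates epithelium, fat cells and vessels from that stroma. Small leucine-rich proteoglycans coat collagen fibrils, and fibrillins and elastin build elastic fibres, which lysyl oxidase cross-links. Fibroblasts make most of the fibrillar collagen of the gland, and epithelial, endothelial and fat cells also contribute to basement membranes.

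The genes were taken from a fixed list of symbols, and each was read by the probe set with the highest mean log2 intensity among those with an intensity of 10 or more on all 31 arrays used. A probe set is a group of short oligonucleotides that match 1 transcript. All 34 genes had such a probe set, out of 11211 genes with a single symbol that passed the same filter. The 5 fibrillar collagens were Col1a1, Col1a2, Col3a1, Col5a1 and Col5a2. The 12 basement membrane genes were Col4a1 and Col4a2, the multiplexins Col15a1 and Col18a1, the laminin chains Lama2, Lama4, Lamb1, Lamb2 and Lamc1, the nidogens Nid1 and Nid2, and Hspg2, which encodes perlecan. A group of 4 collagens of beaded filaments or anchoring fibrils held Col6a1, Col6a2, Col6a3 and Col7a1. Of the remaining genes, 4 encode small leucine-rich proteoglycans (Bgn, Dcn, Lum and Fmod), 4 belong to elastic fibres and their cross-linking (Fbn1, Fbn2, Eln and Lox) and 5 encode adhesive or matricellular glycoproteins (Fn1, Sparc, Postn, Spon2 and Tnc).

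RNA came from whole mammary glands of untreated, virgin, nulliparous Sprague Dawley rats with regular cycles, and each rat was killed at a different hour of the cycle. Hours are counted from midnight of the first day, and day 2 is the day of estrus. Day 1 had 8 rats (7 to 17.6 h), day 2 had 8 (31.6 to 43 h), day 3 had 8 (57 to 67.1 h) and day 4 had 7 (79.3 to 88.1 h). The rat of 40 h was left out of every test but an alternative with all 32 arrays. No hour has a replicate, so the rats of a day stand in for each other. The limma p-values set a slope or day difference against the scatter left around a fit of day and clock hour. That scatter holds the spread between single rats and any change over time that the fit does not follow. Values are linear GC-RMA intensities, array medians ran from 49.9 to 54.7, and only changes of the same probe set between rats can be compared. The labels describe the fourth glands with lymph nodes removed, kept in a stabilizing solution, whereas the study's methods describe flash-frozen glands, and which was used was not settled here.

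Promoter sequence from RefSeq (build GRCr8, 250 bases before to 50 bases after a transcript start) was at hand for 24 of the 34 genes. The windows of Spon2 and Fbn2 are shown because these genes had the strongest change with clock hour, and that of Col4a1 because its levels ran with those of its neighbour Col4a2. Capitals mark CCAAT boxes (CCAAT or, on the other strand, ATTGG) and GC boxes (GGGCGG or CCGCCC).
Spon2, chr14:81736466-81736765, plus strand: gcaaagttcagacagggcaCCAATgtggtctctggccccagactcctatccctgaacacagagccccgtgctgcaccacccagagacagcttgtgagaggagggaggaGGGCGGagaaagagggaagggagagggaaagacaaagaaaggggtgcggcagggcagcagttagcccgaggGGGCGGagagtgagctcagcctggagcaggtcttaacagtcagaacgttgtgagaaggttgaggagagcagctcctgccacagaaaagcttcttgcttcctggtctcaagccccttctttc
Fbn2, chr18:53901943-53902242, minus strand: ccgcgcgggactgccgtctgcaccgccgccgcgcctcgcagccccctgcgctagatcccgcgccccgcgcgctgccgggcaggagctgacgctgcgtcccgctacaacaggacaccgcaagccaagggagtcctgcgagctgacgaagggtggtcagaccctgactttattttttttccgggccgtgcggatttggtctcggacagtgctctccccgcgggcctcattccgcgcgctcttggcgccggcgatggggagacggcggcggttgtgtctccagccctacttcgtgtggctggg
Col4a1, chr16:84885347-84885646, plus strand: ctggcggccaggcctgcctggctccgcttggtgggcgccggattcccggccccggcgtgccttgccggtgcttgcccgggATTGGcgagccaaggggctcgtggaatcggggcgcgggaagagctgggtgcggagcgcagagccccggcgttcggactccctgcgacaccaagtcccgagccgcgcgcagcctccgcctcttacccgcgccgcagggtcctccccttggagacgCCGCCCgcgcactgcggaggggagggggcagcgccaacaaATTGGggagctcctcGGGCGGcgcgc
Spon2's window held 1 CCAAT box and 2 GC boxes, Fbn2's held neither, and Col4a1's held 2 of each. The Spon2 window lies inside the gene, which spans 81713070 to 81742510, so it belongs to an internal transcript start. The Col4a1 and Col4a2 windows lie on opposite strands of chromosome 16 and share 176 bases. Over the 24 windows, a GC box was found in 13 (33.1% of 33469 promoters in the table) and a CCAAT box in 8 (37.5% of all). A TATA box (TATAAA or TTTATA) was found in 4 (14.2% of all). The E-box CACGTG, the letters that circadian clock activators read, was found in 0 of 24 (6.42% of all), and the D-box TTANGTAA or TTACNTAA in 0 of 24 (2.24% of all). A match is a run of letters in this window only, and its absence says nothing about binding elsewhere.

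A single rat of day 1 stood apart before any comparison. The rat of 17.6 h had the lowest value of 29 of the 34 genes, or 85.3%, against 10.6% of all 21068 probe sets tested. Its mean log2 intensity relative to the mean of 31 rats was -0.85 for the fibrillar collagens, -0.80 for the basement membrane genes, -1.43 for the elastic fibre genes and -1.26 for the adhesive glycoproteins. Over all probe sets tested its median deviation was -0.05. The next lowest rat was that of 7.5 h, also of day 1, at -0.56 for the fibrillar collagens and -0.46 for the basement membrane genes. At the other end, the rat of 86.3 h on day 4 had the highest value of 9 genes and the highest value of 12.4% of all probe sets tested. Marker lists of cell types moved too. The rat of 17.6 h was at -0.63 for 8 fibroblast markers (none of them in the 34 genes), at -0.44 for 8 endothelial and at -0.40 for 3 Schwann cell markers, each the lowest of 31 rats, at -3.34 for 6 skeletal muscle markers and at 0.25 for 10 luminal epithelial markers. In whole gland RNA, fewer cells of a type and less RNA per cell cannot be told apart. Results below are therefore given with this rat and, where they change, without it.

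**Figure D1:**
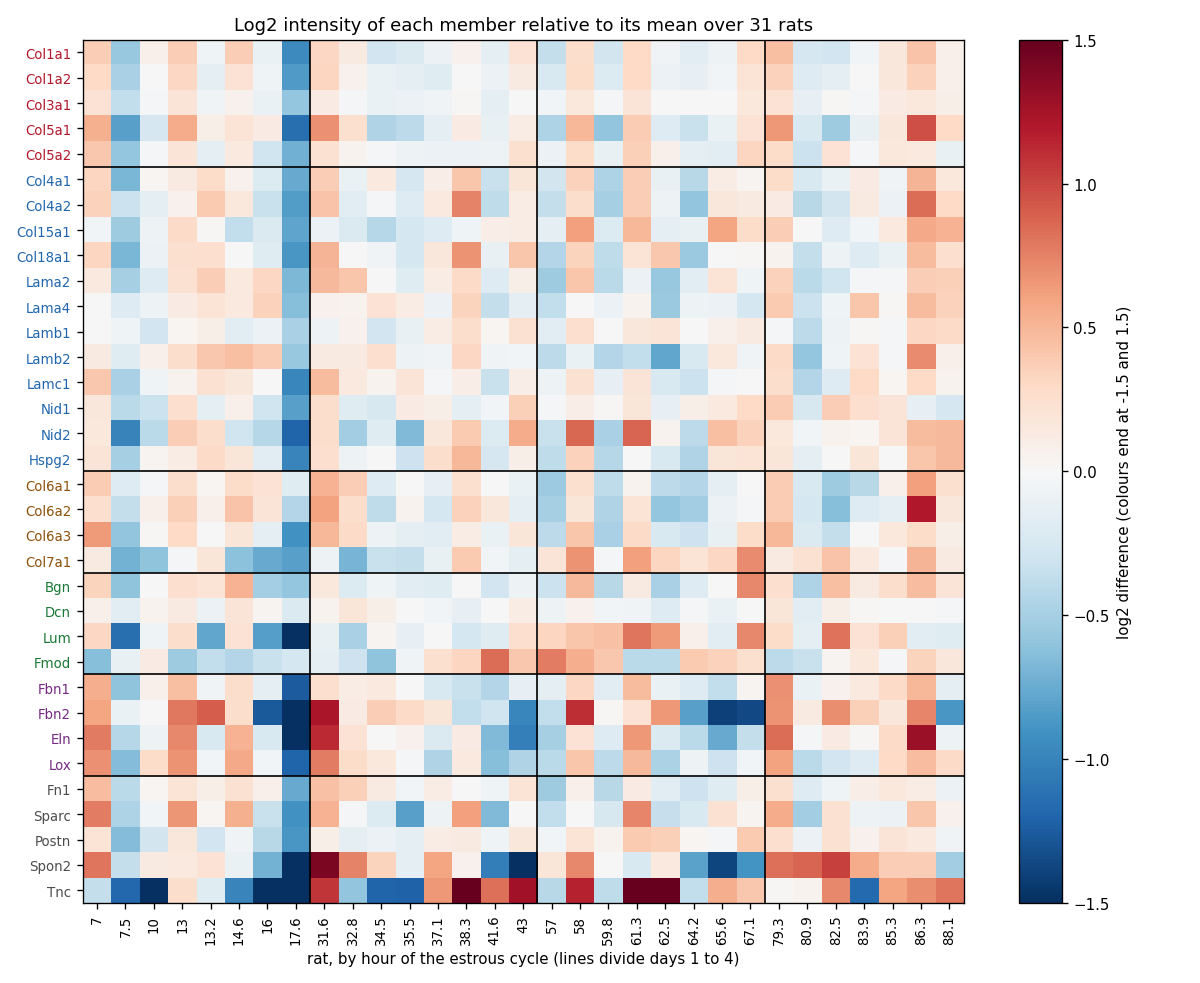
Log2 intensity of each of the 34 genes (rows, grouped by class) relative to its mean over 31 rats, in each rat (columns, by hour of the cycle, with lines between days 1 to 4). The column of the rat of 17.6 h is blue for nearly the whole list and holds the lowest value of 29 genes, and the last rat of every day is blue for Spon2 and Fbn2.

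Clock hour was fitted as 1 slope shared by the 4 days, on top of a level for each day, and a value is the log2 change over 10 h from morning to evening. Spon2 and Fbn2 fell along the day, 0 genes rose and 32 of the 34 did not pass. Spon2 encodes spondin 2, a secreted matrix protein that binds integrins and bacterial surfaces, and Fbn2 encodes fibrillin 2, a microfibril protein best known from development. Of all 21068 probe sets, 0.750% were called lower at later hours in limma at an adjusted p of 0.05. Both genes were already known to fall along the day when the list was put together, so their calls are no independent evidence about matrix genes.

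Spon2 intensity ran from 557 to 1908 (median 1116) in the 14 earlier rats, killed at a clock hour of 7 to 11.9, and from 212 to 1081 (median 613) in the 17 later ones, killed at 13 to 19.1. The ranges overlapped, but all 17 later rats lay below the median of the earlier ones and 8 lay below every earlier rat. On day 2 the level went from 1908 at 31.6 h to 238 at 43 h, the highest and the lowest of that day. The slope of Spon2 was -1.72 (SE 0.21, limma adjusted p = 3.55e-06). Fitted within each day it was -1.39, -2.24, -1.65 and -1.42 on days 1 to 4, and without the rat of 17.6 h the slope over all days was -1.61 (limma adjusted p = 1.97e-05).

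Fbn2 was a dim probe set, with intensities of 25.1 to 75.7 (median 40.7) in the earlier rats and 10.3 to 61.0 (median 26.4) in the later ones. Here too the groups overlapped, 13 of 17 later rats were below the earlier median and 8 were below every earlier rat. Fbn2 had a slope of -1.43 (SE 0.30, limma adjusted p = 0.00524), with -1.35, -1.41, -1.80 and -1.02 within days 1 to 4. Leaving out the rat of 17.6 h gave -1.28 (limma adjusted p = 0.0194), and within day 1 the slopes were then -0.62 for Fbn2 and -0.72 for Spon2. Leaving out all of day 2 kept the Fbn2 slope at -1.44 but not its call (limma adjusted p = 0.125). Across the 31 rats Spon2 and Fbn2 were each other's closest gene on the list (Pearson r = 0.849, and 0.712 after day and hour were fitted), a description only, since both were picked by the same slope.

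The other elastic fibre genes also had slopes below 0, without passing. Elastin, the rubber-like core of the fibre, had intensities of 175 to 537 (median 254) in earlier and 82.3 to 608 (median 212) in later rats. Its slope was -0.83 (SE 0.27, limma adjusted p = 0.118), the groups overlapped, and the rat of 86.3 h held the highest value. Without that rat Eln passed, which made 3 genes called along the day. A second, dimmer Eln probe set had a slope of -1.23 (limma adjusted p = 0.00124), and the correlation between the Eln probe sets was 0.49, the lowest of the 16 genes with 2 probe sets, so the array does not give 1 answer for elastin. Fbn1, the main fibrillin of adult tissue, had a slope of -0.43 (SE 0.18, limma adjusted p = 0.273), and Lox, the cross-linking enzyme, one of -0.45 (SE 0.24, limma adjusted p = 0.441). The median slope of the 4 elastic fibre genes was -0.64 and all 4 were below 0, and without the rat of 17.6 h it was -0.45 with all 4 still below 0. All probe sets tested had a median slope of 0.017.

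**Figure D2:**
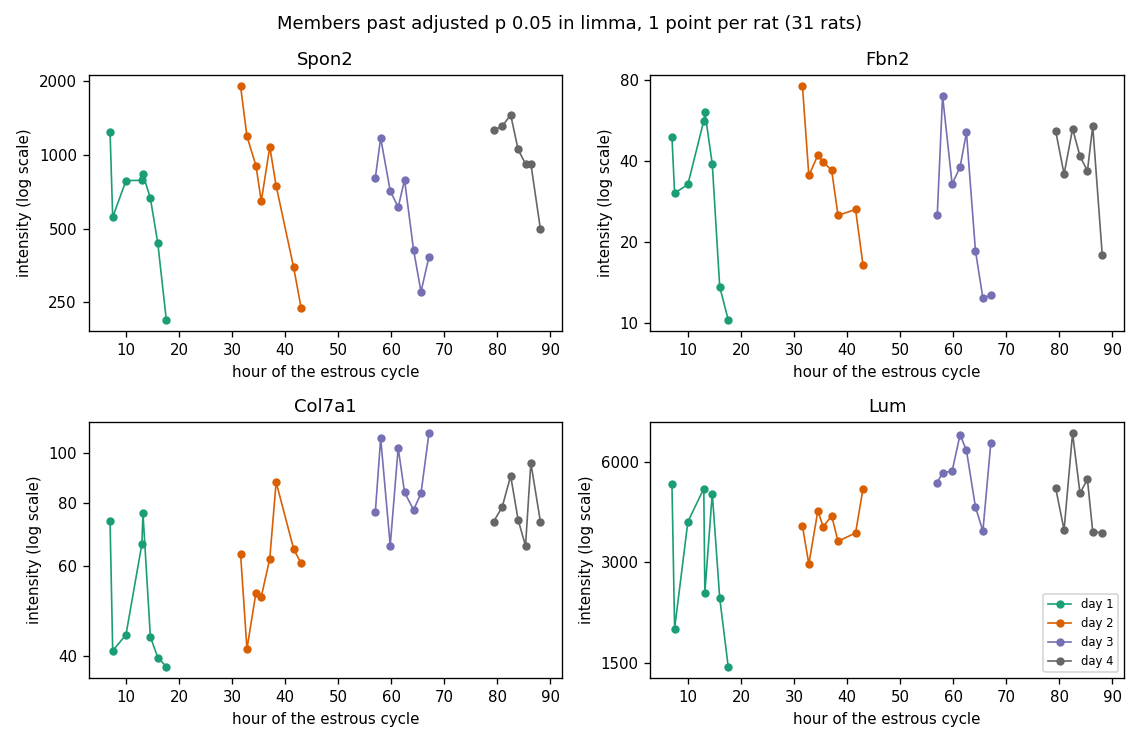
Intensity (log scale, each panel with its own range) of Spon2, Fbn2, Col7a1 and Lum in 31 rats against the hour of the cycle, 1 point per rat, with lines joining rats of the same day. Spon2 ends every day low, at 499.6 or less in the last rat of days 1, 2, 3 and 4, and on day 3 Col7a1 lies between 65.9 and 109.

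None of the 5 fibrillar collagens or 12 basement membrane genes of the list passed the threshold along the day. All 5 fibrillar slopes lay between -0.12 (Col5a2) and -0.04 (Col1a1), with SEs up to 0.24, and the 12 basement membrane slopes between -0.23 (Lamc1) and 0.17 (Nid2). The steepest rise on the list was that of Tnc, tenascin C, at 0.38 (SE 0.46, limma adjusted p = 0.787). The median over the 34 genes was -0.05, with 22 slopes below 0 and 12 above. Over all 21068 probe sets, 9558 slopes were below 0 and 11510 above. The balance of the 34 genes turned with 1 animal. Without the rat of 17.6 h the median was 0.05, 22 slopes were above 0 and 12 below, and 4 of 5 fibrillar and 11 of 12 basement membrane slopes were above 0, while the count of calls stayed at 2. Over all 21068 probe sets, 12109 slopes were then above 0 and 8959 below, and the number called lower went from 158 to 116. Within day 1 itself the slope of Col1a1 was -0.36 with that rat and 0.22 without it.

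Between cycle days the question was which matrix genes differ once clock hour is accounted for. On day 3, after estrus, Col7a1 and Lum were higher than on day 1, 0 genes were lower and 32 did not pass. In limma at an adjusted p of 0.05, 0.403% of all probe sets were called higher on day 3. Col7a1 encodes the anchoring fibril collagen that ties basement membranes to the stroma beneath, and Lum encodes lumican, a proteoglycan of collagen fibrils. Without the rat of 17.6 h, 1 gene, Col7a1, was called, while over all 21068 probe sets the number called higher fell from 85 to 39.

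Col7a1 had intensities of 38.2 to 76.3 (median 43.8) on day 1, 41.3 to 87.7 (median 61.5) on day 2, 65.9 to 109 (median 83.6) on day 3 and 65.8 to 95.7 (median 74.1) on day 4. Its probe set was rather dim, with a mean at percentile 32.4 of all probe sets tested. On day 3, 7 of 8 rats were above every rat of day 1. The difference was 0.77 (SE 0.16, limma adjusted p = 0.0115), and 0.69 without the rat of 17.6 h (limma adjusted p = 0.0334). Col7a1 was also the only one of the 34 genes past the limma test for any difference between the 4 days (adjusted p = 0.0296), which called 0.574% of all probe sets. Leaving out any 1 of the rats of 10, 14.6, 16, 17.6, 57, 61.3 or 67.1 h took that last count to 0.

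Lum intensity was 1462 to 5155 (median 3204) on day 1, 2968 to 4982 (median 3843) on day 2, 3725 to 7245 (median 5606) on day 3 and 3678 to 7317 (median 4841) on day 4. All 8 rats of day 3 were above the median of day 1, and 6 were above its highest rat. The difference between days 3 and 1 was 0.88 (SE 0.22, limma adjusted p = 0.0384). Over the 31 omissions of a single rat the difference stayed between 0.70 and 0.99, but the call was not always kept. The call was lost without the rat of 7.5, 13.2, 16 or 17.6 h of day 1. It was also lost without that of 67.1, 62.5, 61.3, 59.8, 58 or 57 h of day 3. In these omissions differences of 0.70 to 0.91 had limma adjusted p-values from 0.0546 to 0.107, the largest without the rat of 17.6 h. Without the rat of 59.8, 58 or 57 h the difference was 0.88, 0.89 or 0.91, so it did not shrink although the call was lost.

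Postn, which encodes the fibroblast product periostin, ran with Lum from rat to rat and lay just outside the threshold. Its intensity was 9834 to 20821 (median 14819) on day 1 and 17595 to 23698 (median 19816) on day 3, so all 8 rats of day 3 were above the day 1 median and 4 were above the day 1 range. The difference was 0.46 (SE 0.12, limma adjusted p = 0.0503). It passed without the rat of 7, 13, 43 or 65.6 h (limma adjusted p from 0.0169 to 0.0474) and was 0.35 without the rat of 17.6 h (limma adjusted p = 0.137).

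Tnc, a matricellular protein of remodelling tissue, had the largest difference and the widest spread, with an SD of 1.10 on the log2 scale and a 15.2-fold range over 31 rats. Day 1 held 10.7 to 52.3 (median 20.7), day 2 18.8 to 134 (median 73.0), day 3 32.7 to 163 (median 60.7) and day 4 19.5 to 76.4 (median 65.7). Every rat of day 3 lay above the median of day 1, yet the ranges overlapped. Day 3 minus day 1 was 1.55 (SE 0.45, limma adjusted p = 0.0858), and among omissions of single rats it passed only without the rat of 13 h (1.74, limma adjusted p = 0.0439). Against day 1, Tnc also had the largest difference on day 2 (1.35, SE 0.44, limma adjusted p = 0.692) and on day 4 (1.33, SE 0.46, limma adjusted p = 0.561).

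In the other direction stood Lamb2, the laminin beta 2 chain, with -0.41 for day 3 minus day 1 (SE 0.15, limma adjusted p = 0.203). All 8 rats of day 3 were below the day 1 median of 1120, at 571 to 1087 against 659 to 1333 on day 1. Without the rat of 17.6 h, which holds the day 1 minimum, the difference was -0.55 (limma adjusted p = 0.0547). Genes placed in the same class here did not all run together. Of the collagen VI chains, Col6a1 and Col6a2 had differences of -0.29 and -0.30 and Col6a3 one of 0.02. The anchoring fibril collagen Col7a1, grouped with them, had 0.77. Among basement membrane genes values ran from -0.41 (Lamb2) to 0.46 (Nid2), the latter at a limma adjusted p of 0.372. Fmod, a proteoglycan like Lum, was at 0.51 (SE 0.17, limma adjusted p = 0.157). At an unadjusted p under 0.05 there were 8 of the 34 genes (23.5%), against 13.8% of all probe sets. With arrays weighted by their quality, Lamb2 and Fmod passed and Lum did not.

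Elsewhere in the cycle 0 of the 34 genes passed. The share of all probe sets called by limma in either direction was 0.00475% for day 2 against day 1, 0.0237% for day 4 against day 1, 0.271% for day 3 against day 2 and 0% for day 4 against day 3. At an unadjusted p under 0.05 the matrix genes numbered 3 (8.82%), 7 (20.6%), 4 (11.8%) and 2 (5.88%) in the same order, against 5.78%, 6.47%, 12.7% and 5.79% of all probe sets (1220 for day 4 against day 3). Besides Tnc, the extremes were Sparc at -0.10 for day 2 minus day 1 (limma adjusted p = 0.979) and Col6a1 at -0.08 for day 4 minus day 1 (limma adjusted p = 0.984). For day 3 minus day 2 they were Col7a1 at 0.54 (SE 0.15, limma adjusted p = 0.129) and Lamb2 at -0.36 (SE 0.15, limma adjusted p = 0.300), and for day 4 minus day 3 Spon2 at 0.41 (SE 0.22, limma adjusted p = 0.846) and Lum at -0.29 (SE 0.23, limma adjusted p = 0.855). Days 2, 3 and 4 share the rats of day 1 as their comparison, and 29, 25 and 32 of the 34 differences from day 1 were above 0. Over all 21068 probe sets, 11548, 10259 and 11050 were above 0. Without the rat of 17.6 h the counts were 20, 12 and 26 for the 34 genes and 10689, 9686 and 10349 for all probe sets.

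**Figure D3:**
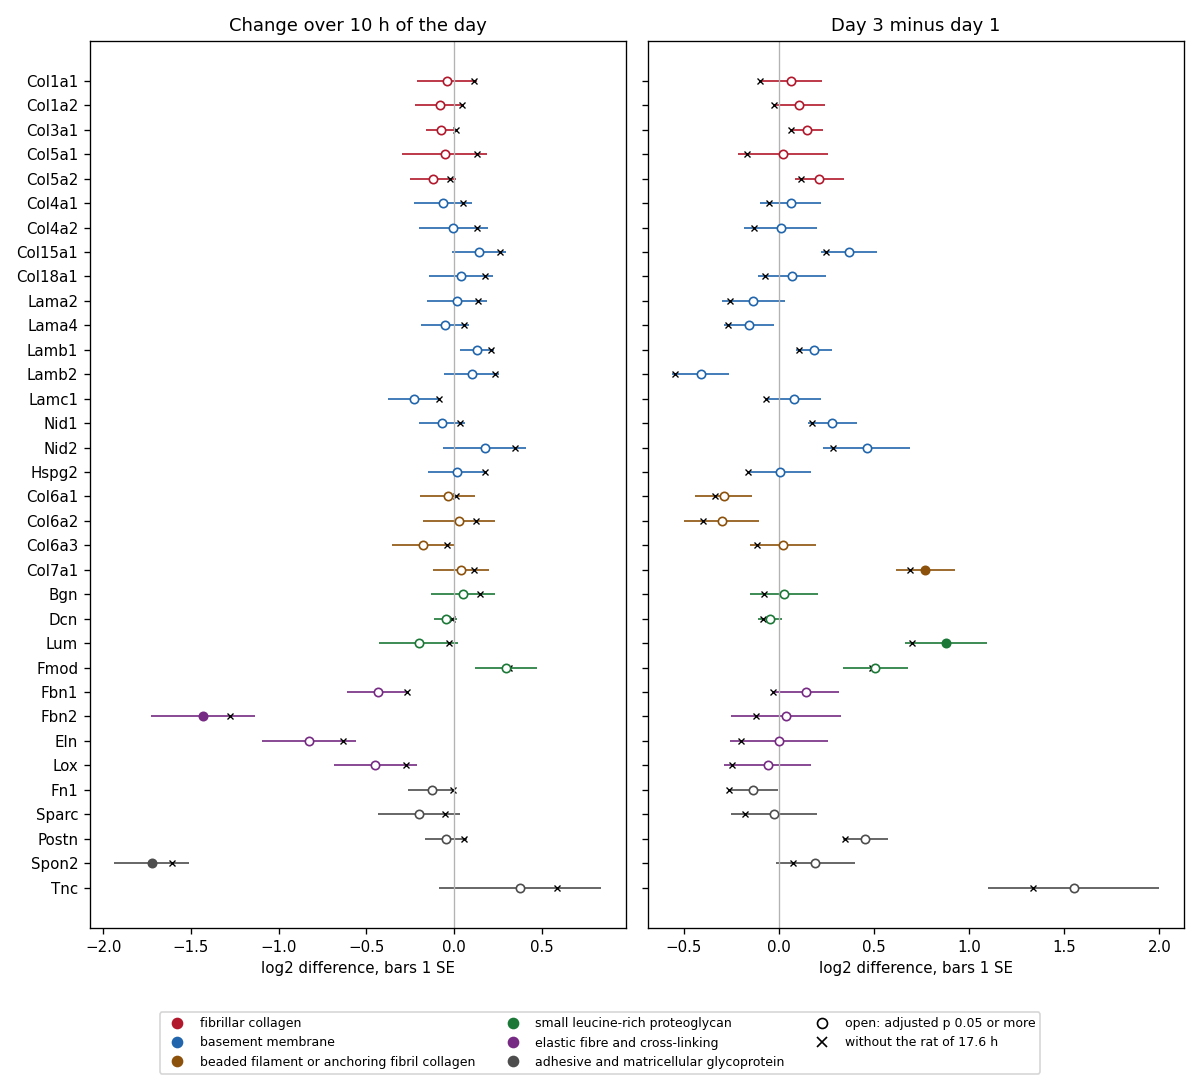
Log2 change over 10 h of the day (left) and log2 difference of day 3 minus day 1 (right) for the 34 genes, with bars of 1 SE from limma, filled points for an adjusted p under 0.05 and crosses for the value without the rat of 17.6 h. Spon2 (-1.72) and Fbn2 (-1.43) stand apart on the left and Tnc (1.55), Lum (0.88) and Col7a1 (0.77) on the right, and all 34 crosses lie to the right of their points in the left panel and to the left of them in the right panel.

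Fibrillar collagens and basement membrane genes were then set against each other. In no comparison did a gene of either class pass, although Lamb2 did on day 3 with array weights. Along the day the median was -0.07 for the fibrillar collagens and 0.02 for the basement membrane genes, a difference of -0.09. For day 2 minus day 1 the medians were 0.09 and 0.16, for day 3 minus day 1 they were 0.11 and 0.07, and for day 4 minus day 1 0.17 and 0.18. The medians were farthest apart for day 3 minus day 2, at 0.02 for the fibrillar and -0.13 for the basement membrane class. That difference of 0.15 was 0.24 with the mean of all probe sets of a gene and 0.07 with the endothelial and fibroblast marker lists as covariates, and it ran from 0.09 to 0.20 over the 31 single omissions. The difference for day 3 minus day 1, 0.04, was 0.11 with the mean of probe sets and -0.05 with those covariates. Without the rat of 17.6 h the medians of the fibrillar and the basement membrane class were 0.05 and 0.16 along the day, -0.03 and 0.05 for day 2 minus day 1 and -0.02 and -0.07 for day 3 minus day 1, so that the fibrillar median turned sign in all 3 and the basement membrane median in the last. These medians are descriptions with no test, and the 31 single omissions moved the difference along the day between -0.14 and -0.05 and that for day 3 minus day 1 between -0.02 and 0.07.

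None of the 5 fibrillar collagens of the list passed between days. For 3 of the 5 the sign of the day 3 difference in the probe set used rested on the rat of 17.6 h. Col3a1, the type III collagen chain, had intensities of 17070 to 29742 on day 1, 23322 to 27924 on day 2, 24779 to 29201 on day 3 and 23436 to 29723 on day 4. Day 3 minus day 1 was 0.15 (SE 0.09, limma adjusted p = 0.454). Col1a1 had 8654 to 21808, 13834 to 20829, 13186 to 20785 and 13770 to 23026 on days 1 to 4, and a day 3 difference of 0.06 (SE 0.16, limma adjusted p = 0.905). The other type I chain, Col1a2, was at 0.11 (SE 0.13, limma adjusted p = 0.769), Col5a1 at 0.02 (SE 0.24, limma adjusted p = 0.983) and Col5a2 at 0.21 (SE 0.13, limma adjusted p = 0.475). Second, dimmer probe sets of Col1a1, Col1a2, Col5a1 and Col5a2 had larger day 3 differences, at 0.32, 0.27, 0.13 and 0.41, none past the threshold. Without the rat of 17.6 h, 3 of the 5 turned sign, with Col1a1 at -0.10, Col1a2 at -0.02 and Col5a1 at -0.17, and Col3a1 was at 0.06 and Col5a2 at 0.12. In all 5 the lowest of the 31 rats was the rat of 17.6 h. Decorin, the most even gene of the list, had an SD of 0.11 on the log2 scale over 31 rats (13959 to 18616), below the median SD of 0.235 over all probe sets, whereas 31 of the 34 genes had an SD above that median. Median SDs were 0.26 for the fibrillar, 0.33 for the basement membrane and 0.54 for the elastic fibre genes.

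Basement membrane genes showed more variety. Col4a1 had intensities of 2210 to 4667 on day 1, 2978 to 5012 on day 2, 2717 to 4833 on day 3 and 3202 to 5312 on day 4, with medians between 3661 and 4090 and a day 3 difference of 0.06 (SE 0.16, limma adjusted p = 0.900). Perlecan's gene Hspg2 lay at 147 to 356 on day 1 and 213 to 371 on day 3, a difference of 0.005. Nid2, whose product links laminin to collagen IV, had 598 to 1773 (median 1077) on day 1 and 977 to 2508 (median 1590) on day 3, and 6 of 8 rats of day 3 were above the day 1 median but only 3 above its highest rat. Col15a1 and Nid1 had day 3 differences of 0.37 and 0.28 (limma adjusted p = 0.2495 and 0.321), which were 0.25 and 0.17 without the rat of 17.6 h. The laminin chains were split, with Lama2 at -0.13, Lama4 at -0.16, Lamb1 at 0.18 and Lamc1 at 0.08, none past the threshold. Outside these classes, fibronectin (Fn1), Sparc and Lox had day 3 differences of -0.14, -0.02 and -0.06 and biglycan (Bgn) one of 0.03.

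**Figure D4:**
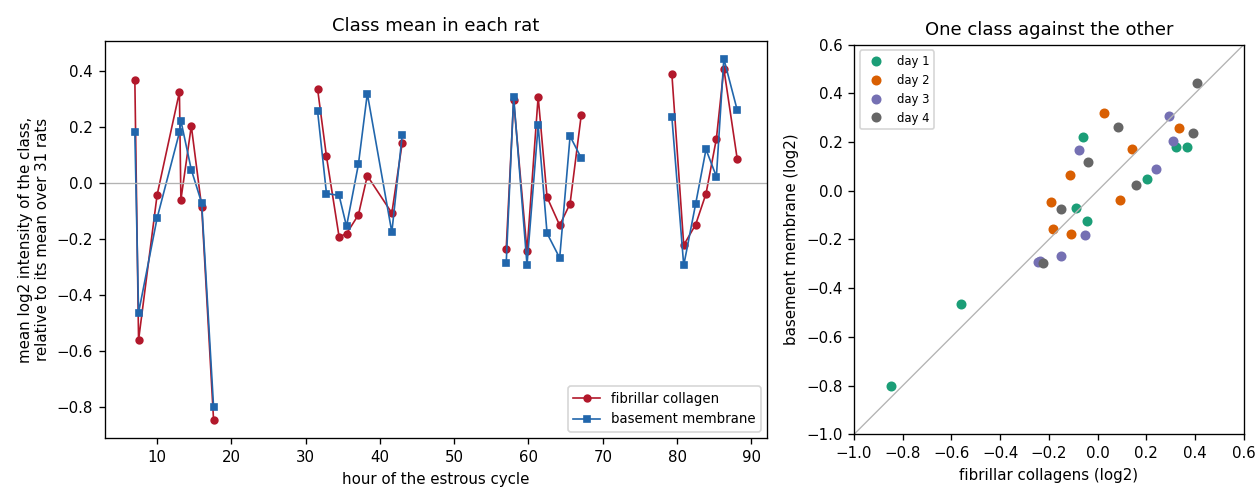
Mean log2 intensity of the 5 fibrillar collagens and the 12 basement membrane genes in each of 31 rats, relative to the mean over rats, against the hour of the cycle (left) and against each other (right, with the line of equal values). In 22 of 27 steps between neighbouring rats of a day both classes move in the same direction, and they run from -0.85 and -0.80 in the rat of 17.6 h to 0.41 and 0.44 in the rat of 86.3 h.

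Many of the matrix genes shared a level that differed between rats. The median Pearson correlation over 31 rats was 0.910 for the 10 pairs of fibrillar collagens, 0.627 for the 66 pairs of basement membrane genes and 0.706 for the 60 pairs across the classes, against 0.009 for all pairs of probe sets tested. Without the rat of 17.6 h these medians were 0.874, 0.549 and 0.611, and 0.008 for all pairs. They are given as descriptions with no test, since genes of 1 array share its RNA. Fmod was the exception, with a median correlation of -0.11 with the other genes, and Spon2 had 0.34 and Fbn2 0.37.

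For 9 pairs chosen by shared assembly or neighbouring genes, after the data had been seen, correlations over 31 rats are set beside the median r of 0.565 over all 561 pairs of the 34 genes. Since so many pairs shared a level, a test of a pair against 0 says little, and the values are descriptions. Here r is the Pearson correlation and rho the Spearman rank correlation. Col1a1 and Col1a2, the chains of collagen I, had r = 0.978 and rho = 0.961. Col4a1 and Col4a2, the collagen IV chains whose promoter windows overlap, had r = 0.925 and rho = 0.929, Col6a1 and Col6a2 r = 0.924 and rho = 0.937, and the neighbours Col3a1 and Col5a2 r = 0.906 and rho = 0.809. Leaving out the 2 rats farthest from the median of the first gene gave r = 0.963, 0.943, 0.928 and 0.825 for these 4 pairs. Col5a1 with Col5a2 had r = 0.722 and rho = 0.632, and Fbn1 with Fbn2 r = 0.662 and rho = 0.713, with r = 0.564 for either pair without 2 rats. The remaining pairs lay near or below the median of all pairs. Nid1 with Nid2 had r = 0.581 and rho = 0.465, and r = 0.340 without 2 rats. Lamb1 and Lamc1, chains of the same laminins, had r = 0.498 and rho = 0.327, and r = 0.163 without 2 rats. Dcn and Lum, related proteoglycans in neighbouring genes, had r = 0.350 and rho = 0.254, and r = 0.185 without 2 rats.

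By a statistic that asks how much of a profile over the whole cycle a smooth curve takes up, 6 of the 34 genes varied, against 9.05% of all probe sets. This statistic of Method 1 is also called rho, but it is not the rank correlation given for the pairs above. It is the variance of a fitted spline divided by the variance of the log values, and calls were made at a false discovery rate of 0.25. Spon2 had the highest, 0.776, above every value from the permuted order of rats, then Col7a1 (0.588), Fmod (0.557), Fbn2 (0.521), Postn (0.456) and Lum (0.448). No fibrillar or basement membrane gene among the 34 was called, and the lowest values were those of Col1a1 (0.082) and Col5a1 (0.084). Over the 34 genes the median rho was 0.241, next to 0.248 for the whole set of probe sets tested and 0.219 when the rats were put in permuted order. Omitting single rats moved the count between 3 and 9, with 3 called without the rat of 16, 35.5, 43, 59.8 or 67.1 h and 9 without that of 7.5 or 38.3 h. How the share of all probe sets moved in these omissions is not given here.

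Of 89 further matrix genes (other collagens and laminins, collagen-processing enzymes, matricellular proteins, matrix receptors and the TGF-beta system), 76 were measured. Along the day, when 1.21% of all probe sets were called higher, 1 was called higher and 1 lower: Tgfb2, a growth factor that induces matrix genes, at 0.54 (SE 0.12, limma adjusted p = 0.00656), and Sdc1, the epithelial proteoglycan syndecan 1, at -0.56 (SE 0.15, limma adjusted p = 0.0448). On day 3 against day 1, 2 were higher and 4 lower, that is 4 of 76 against 0.721% of all probe sets called lower. Col2a1, a fibrillar collagen known from cartilage, was higher by 0.85 (limma adjusted p = 0.0168) and Efemp1, or fibulin 3, by 0.58 (limma adjusted p = 0.0340). Thbs2, the matricellular protein thrombospondin 2, had the strongest drop, at -1.08 (SE 0.17, limma adjusted p = 0.00157), followed by the basement membrane chain Lama5 at -0.68 (limma adjusted p = 0.0460), Tgfb2 at -0.46 (limma adjusted p = 0.0367) and Spon1, a relative of Spon2, at -0.41 (limma adjusted p = 0.0384). Thbs2 was also lower on day 4 than on day 1 (-0.998, limma adjusted p = 0.0205) and on day 3 than on day 2 (-0.92, limma adjusted p = 0.0145). Medians over the 76 genes were 0.019 along the day and 0.09 for day 3 minus day 1.

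Some lists of cell type markers moved with the shared matrix level. Over 31 rats the mean of the fibroblast list correlated with that of the fibrillar collagens at r = 0.821 and with that of the basement membrane genes at r = 0.693. In the same order, the Schwann cell list was at 0.557 and 0.798, the adipocyte list at 0.530 and 0.745 and the endothelial list at 0.572 and 0.626. Luminal epithelium ran the opposite way, at r = -0.591 with the fibrillar and -0.553 with the basement membrane mean. Other lists followed these means less, in the same order: skeletal muscle at 0.25 and 0.32, and macrophage at 0.27 and 0.20. The lymphocyte list was at -0.20 and -0.26, and the basal and myoepithelial list at -0.03 and 0.14. These are descriptions over rats that share arrays, and no p is given. For Spon2 and Fbn2 the correlation was 0.456 and 0.521 with the endothelial list and 0.389 and 0.415 with the fibroblast list. Summed intensity of the 8 fibroblast markers measured of 9 was 13677 to 22843 in earlier and 11740 to 21113 in later rats, and 11740 to 21446 on day 1 and 14955 to 21050 on day 3. Among lists, limma called 1 of 8 fibroblast markers lower along the day (Pdgfra, at -0.31) and 2 of 9 adipocyte markers higher. On day 3 against day 1 it called 2 of 10 luminal markers higher and 1 lower, 3 of 9 basal and myoepithelial markers higher and 1 lower, and 1 of 8 macrophage markers lower. The muscle, endothelial, lymphocyte and Schwann cell lists had 0 calls in both comparisons. Skeletal muscle markers had summed intensities from 179 to 40064 over the 31 rats. With the adipocyte, muscle, luminal and lymphocyte lists as covariates, Spon2 had a slope of -1.999 (limma adjusted p = 7.01e-06) and Fbn2 one of -1.53 (limma adjusted p = 0.00699), and day 3 minus day 1 was 0.83 for Col7a1 (limma adjusted p = 0.00673) and 0.97 for Lum (limma adjusted p = 0.0262). With the endothelial and fibroblast lists as covariates instead, an alternative chosen after seeing the data, the slope was -1.61 for Spon2 (limma adjusted p = 5.915e-06) and -1.25 for Fbn2 (limma adjusted p = 0.00870), and day 3 minus day 1 was 0.85 for Col7a1 (limma adjusted p = 0.0404) and 0.81 for Lum, which no longer passed (limma adjusted p = 0.148).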

How the data were processed

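Each of 32 rats gave 1 Affymetrix Rat 230 2.0 array of mammary gland RNA. Linear intensity was deposited, computed by the authors with GC-RMA, whose version no source here names. GC-RMA models background from probe sequence and normalizes arrays jointly, so a change shared by all probe sets is removed. Values were taken to log2 here. The number of arrays limits the precision, and no scan batch was known. The array of 40 h was left out, following the methods.

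From 31099 probe sets, 57 controls were dropped, and 21068 with an intensity of 10 or more on all 31 arrays were tested. Symbols came from the platform annotation. limma (lmFit, eBayes) fitted a level per day and a slope of clock hour with Benjamini-Hochberg adjustment over all 21068 probe sets and a threshold of 0.05. Method 1 of the study used a B-spline of order 2 and its printed permutation vector. Genes named in full are those past the threshold in a limma comparison, the 5 fibrillar collagens, the largest and smallest change in each comparison and, from the further matrix genes, those past the threshold (at most 4 by size in each direction). The 34 genes, the classes and the marker lists were chosen with earlier results of these data known. Scripts were tested on simulated data. Alternatives covered the filter, arrays, days, normalization, weights, variance model, covariates, probe sets and classes. R 4.3.3, limma 3.58.1, Python 3.11.15, numpy 2.4.6, scipy 1.17.1 and pandas 2.3.3 were used.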

Additional observations from a re-analysis of the deposited data

Results flagged for a closer look

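In 4 of 136 combinations of gene and cycle day, 1 rat lay far from the others of its day by Dixon's criterion, which chance meets in about 1 of 20 groups. All 4 were low values on day 4. Spon2 was at 499.6 in the rat of 88.1 h, against 921 to 1462 in the other 6, and Fbn2 was at 17.8 in the same rat, against 35.7 to 53.9. That rat was the last one killed on day 4. Bgn, the gene of the proteoglycan biglycan, was at 376 in the rat of 80.9 h, against 570 to 717, and Tnc was at 19.5 in the rat of 83.9 h, against 44.3 to 76.4. The rat of 17.6 h met the criterion for none of the 34 genes within day 1. A slope of clock hour that differed between days was found for 0 genes in limma (lowest adjusted p = 0.9999), with 1 gene, Fmod, at an unadjusted p under 0.05.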

How the results depend on the processing

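Under the alternatives and the omission of each of 31 rats, Spon2 along the day and Col7a1 on day 3 kept direction and call in every one that tested them. Class medians and their differences, which have no test, turned sign under several: fibrillar against basement membrane was 0.02 along the day with the 4 marker lists as covariates, 0.04 for day 4 against day 1 with the mean of probe sets and, for day 3 against day 1, as low as -0.02 after the omission of 1 rat and -0.05 with the endothelial and fibroblast lists as covariates, which also gave 0.01 for day 4 against day 3. Along the day, 1 of the 34 genes was called with a minimum intensity of 20 (Fbn2 and Tnc, which reach 10.3 and 10.7, then drop out) and 1 without day 2, when Fbn2 was -1.44 (limma adjusted p = 0.125). The omission of 1 rat gave 2 to 3. On day 3 against day 1, 1 gene was called with no filter on low values, when 31042 probe sets were tested. The count was 1 with the endothelial and fibroblast lists as covariates (chosen after seeing the data), and 1 to 4 after the omission of 1 rat. Lum was not called with no filter (limma adjusted p = 0.0581) or with array weights (0.0594), which called Lamb2 and Fmod instead, and Postn was called under the minimum of 20, all 32 arrays, quantile normalization, a trended robust variance, the 4 marker lists as covariates and the mean of probe sets (limma adjusted p from 0.0181 to 0.0482). The count for any day difference was 0 to 1 after the omission of 1 rat. Method 1 called 2 of the 34 genes with a spline of order 3, 1 at a false discovery rate of 0.05 and 3 to 9 after the omission of 1 rat. The share of all probe sets called under these settings is not given here. These counts therefore do not tell a shift of the 34 genes from one of all probe sets, and the cause was not tested. No paired analysis was possible because each rat was killed once and gave 1 array.

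Dim probe sets such as Fbn2 and Tnc are limited by signal over background, and with 7 or 8 rats a day and no replicate of an hour, differences between days and between single rats are only separated through the fit.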
